A study of Homo sapiens with 25 samples.

Results

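The 10 genes described here come from an epithelial cancer line followed through exposure to THC: TM4SF4, TINAG, AMBP, KCNJ16, BICC1, ID4, SFTA1P, TESC, CST6 and ANKRD2. They were picked from the RNA table because their levels stood far lower with THC, and because most are known from differentiated kidney tubule, liver, lung, skin or muscle. The RNA levels that chose them are therefore given as a description, without a test. They are 10 of 60179 gene identifiers in the table, and all 10 were among the 13753 genes whose mean over the RNA libraries reached 1 TPM, a level corrected for gene length and scaled to a fixed total per library. The choice used no numeric threshold.

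The cells were HEC-1A, a human endometrial adenocarcinoma line of wild-type genotype, either left untreated or given THC (tetrahydrocannabinol, the main psychoactive compound of cannabis) at 20 µM. RNA-seq and ATAC-seq, which marks open DNA by transposon insertion, had 3 libraries each for untreated cells, 24 h of THC and 72 h of THC. CUT&RUN for H3K4me3, a histone mark of active start sites, had 3 untreated and 3 THC libraries, and the labels of the latter give no time. An IgG sample was not analysed here. The untreated libraries carry no time either, so time in culture and time with THC cannot be told apart. The labels call the libraries biological replicates without naming separate cultures, so the spread given here may be technical. All 6 epithelial markers (KRT7, KRT8, KRT18, KRT19, EPCAM and CDH1) reached 1 TPM, with a summed level of 2550.3 to 2666 TPM in untreated, 4425 to 4489 at 24 h and 3191 to 3438 at 72 h. At 72 h the mean of each keratin was above untreated, while CDH1 averaged 76.5 TPM against 101 untreated and EPCAM 336 against 369. None of 6 stromal, 6 endothelial or 6 immune markers reached a mean of 1 TPM over the libraries, and ITGAM, an immune marker, averaged 0.189, 0.377 and 1.06 TPM in the 3 groups.

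As background, the epithelia of kidney tubules and of the Müllerian duct, from which the endometrium forms, share PAX transcription factors. Differentiated cells of these tissues make channels, basement membrane proteins and secreted inhibitors that other cells lack. ID proteins hold back basic helix-loop-helix transcription factors and are classical targets of BMP signalling. H3K4me3 and open chromatin at a start site mark genes that are or can be transcribed, and their presence does not measure the rate of transcription.

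The bases just before the start sites are shown here because the chromatin results concern these starts. The stretches also differ sharply in base composition. The peaks counted later lie within 1000 bases of a start and do not always cover the printed bases. The RefSeq promoter table used here (GRCh38.p14) matched 6 of the 10 genes, the others being BICC1, SFTA1P, TESC and CST6. The 250 bases before the start are printed 5′ to 3′ on the gene's strand for 4 genes, for KCNJ16 at the first of its 3 starts. Capitals mark 3 motifs, which were searched on both strands. They are the TATA box TATAAA or its reverse TTTATA, the box CCAAT or its reverse ATTGG, and the GC box GGGCGG or its reverse CCGCCC.
TM4SF4, chr3:149474447-149474696, plus strand: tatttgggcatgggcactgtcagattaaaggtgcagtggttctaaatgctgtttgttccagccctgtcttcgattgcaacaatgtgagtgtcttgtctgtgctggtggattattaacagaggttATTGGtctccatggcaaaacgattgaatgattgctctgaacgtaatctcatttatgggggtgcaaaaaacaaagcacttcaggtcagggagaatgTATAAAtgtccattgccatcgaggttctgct
TINAG, chr6:54308191-54308440, plus strand: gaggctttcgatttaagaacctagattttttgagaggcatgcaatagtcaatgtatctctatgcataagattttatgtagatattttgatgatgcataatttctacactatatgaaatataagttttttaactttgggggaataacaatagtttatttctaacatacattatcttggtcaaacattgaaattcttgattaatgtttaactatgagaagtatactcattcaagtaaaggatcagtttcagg
KCNJ16, chr17:70074975-70075224, plus strand: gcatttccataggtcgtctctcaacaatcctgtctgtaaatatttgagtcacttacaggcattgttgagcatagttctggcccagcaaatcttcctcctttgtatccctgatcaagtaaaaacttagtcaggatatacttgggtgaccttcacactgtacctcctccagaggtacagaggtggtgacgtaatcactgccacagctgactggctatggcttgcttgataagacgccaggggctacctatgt
ID4, chr6:19837120-19837369, plus strand: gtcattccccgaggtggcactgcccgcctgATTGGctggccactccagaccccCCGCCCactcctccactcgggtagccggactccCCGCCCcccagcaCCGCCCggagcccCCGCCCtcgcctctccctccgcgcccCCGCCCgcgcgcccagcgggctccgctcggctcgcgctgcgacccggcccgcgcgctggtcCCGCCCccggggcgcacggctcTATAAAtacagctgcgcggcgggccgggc

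The TINAG stretch held 28.4% G and C, which put it at percentile 0.103 of 14593 such windows from 10084 tested genes, whose median was 64.8%. TM4SF4 had 43.2% (percentile 5.81) and KCNJ16 46.4% (percentile 8.75). ID4 lay at the other end, with 78.8% (percentile 92.8) and 34 CpG dinucleotides. The ratio of observed to base-composition CpG was 0.944 for ID4 and 0.358, 0.205 and 0.224 for TM4SF4, TINAG and KCNJ16, against a median of 0.803. The TINAG stretch lies inside the RefSeq span of the gene, which begins at base 54307862, because the start used here lies farther in at base 54308441. The ATAC peaks counted for TINAG ended before the stretch, at base 54308081 at the latest, while the H3K4me3 peaks of all 6 libraries spanned it. AMBP (0.210) and the first ANKRD2 start (0.206) were CpG-poor as well, although their G and C content, 62.0% and 62.4%, was near the median. Of the 6 matched genes, ID4 was thus the only one with a ratio above the median.

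A TATA box began 31 bases before the TM4SF4 start and 29 before the ID4 start, a motif that 5.62% of all windows hold. TM4SF4 also held a CCAAT box 126 bases before its start, a motif found in 33.4% of windows. ID4 held 6 GC boxes, a motif present in 63.7% of windows, and AMBP 1 GC box and 4 CCAAT boxes. The printed TINAG and KCNJ16 stretches held none of the 3 motifs. A match is a run of letters and not a measured binding site.

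At 24 h, 9 of the 10 genes were lower than in every untreated library and 1, CST6, was higher, and at 72 h all 10 were lower in every library. The 10 genes retained 5.06% to 116% of the untreated mean at 24 h, with a median of 16.1%, and 1.31% to 27.4% at 72 h, with a median of 5.33%. Among all tested genes, 52.8% had lower and 25.8% higher levels without overlap at 24 h, and 35.0% lower and 41.6% higher ones at 72 h. Because the genes were picked on these libraries, nothing is read from their counts. On the log2(TPM + 1) scale, which understates the change of low genes, their median change was -2.60 at 24 h and -3.50 at 72 h, beside -0.23 and 0.06 for all tested genes. Fewer cells carrying a transcript and less of it per cell cannot be told apart in these bulk libraries. TPM keeps no sequencing depth, so the depth behind each level is unknown.

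**Figure D1:**
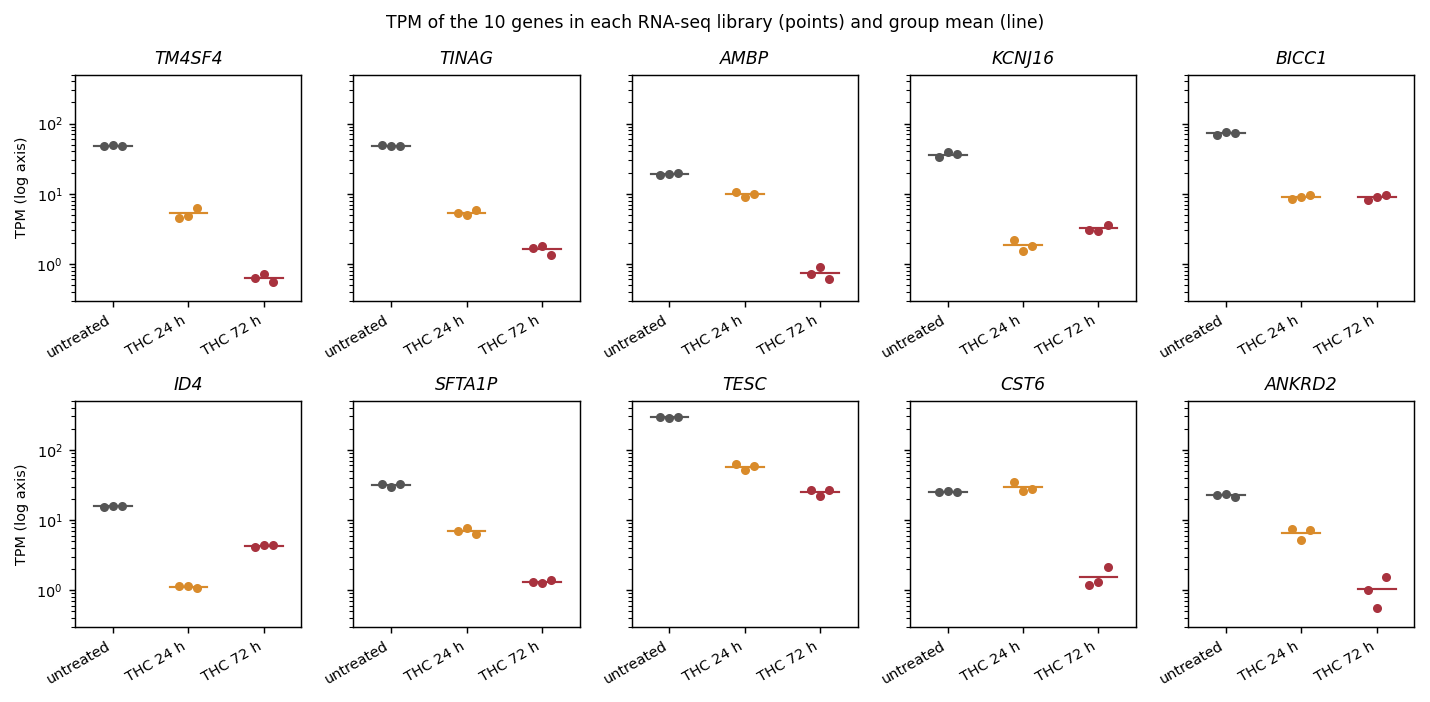
Level of each of the 10 genes in TPM on a log axis, with 3 points per group for the RNA-seq libraries and a line at the mean of the group. Levels step down at both times for TM4SF4, TINAG, AMBP, SFTA1P, TESC and ANKRD2, while CST6 is low at 72 h alone, BICC1 is level between the times and KCNJ16 and ID4 are lowest at 24 h.

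The times fell into 4 orders. TM4SF4, TINAG, SFTA1P, TESC, AMBP and ANKRD2 were lower at 24 h and lower again at 72 h. CST6 was low at 72 h alone. BICC1 was equally low at both times, and KCNJ16 and ID4 were at their lowest at 24 h. Between 24 h and 72 h, 7 of the 10 genes were lower in every library, 2 were higher and 1 overlapped. Of all tested genes, 18.5% were lower and 55.4% higher without overlap in that contrast (17.8% and 54.9% by limma's call), which shares no untreated library with the other two but uses the libraries on which the genes were picked.

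Gene positions are those of RefSeq on GRCh38.p14. Among membrane proteins, TM4SF4 (chr3:149474697-149503394) encodes a small multi-pass protein of the L6 family known from liver and gut epithelium. It stood at 48.6, 48.8 and 47.5 TPM in untreated libraries, at 4.57, 4.83 and 6.34 at 24 h and at 0.630, 0.715 and 0.559 at 72 h. The 3 groups did not overlap, and each step was many times the spread within a group. Its change was -2.99 at 24 h and -4.92 at 72 h (SE 0.0995 each), the 7th and the 2nd lowest of 13753 genes.

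KCNJ16 (chr17:70075225-70135608) encodes a subunit of inwardly rectifying potassium channels of kidney tubule cells. Untreated libraries gave 33.0, 39.3 and 36.3 TPM, 24 h libraries 2.16, 1.52 and 1.81, and 72 h libraries 3.03, 2.97 and 3.61. The gene was lowest at 24 h, at 5.06% of the untreated mean, and every 72 h library lay above every 24 h library while remaining at 8.85% of the untreated mean. The change was -3.72 at 24 h and -3.15 at 72 h (SE 0.103), and 0.57 from 24 h to 72 h.

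Among secreted and matrix proteins, TINAG (chr6:54307862-54390142) is a glycoprotein of tubular basement membranes. It measured 49.6, 47.2 and 47.4 TPM untreated, 5.24, 5.01 and 5.81 at 24 h, and 1.71, 1.77 and 1.34 at 72 h. TINAG started at nearly the same level as TM4SF4 (48.0 ± 1.36 against 48.3 ± 0.695 TPM, SD, n = 3) and was at a like level at 24 h (5.35 ± 0.413 against 5.25 ± 0.956). At 72 h it was the higher of the pair, at 1.61 ± 0.233 against 0.635 ± 0.0781 TPM, with no overlap between their libraries.

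AMBP (chr9:114060127-114078300) encodes the precursor of alpha-1-microglobulin and bikunin, 2 plasma proteins made mainly by liver. Its levels were 18.4, 18.8 and 19.6 TPM untreated, 10.6, 8.94 and 9.77 at 24 h, and 0.724, 0.903 and 0.608 at 72 h. At 24 h it still had 51.5% of its untreated mean, and 3.93% at 72 h. The change of -0.89 at 24 h was 25.4% of the log2 change at 72 h (-3.52, SE 0.0840), and the change from 24 h to 72 h was -2.62. In TPM the mean went from 18.9 to 9.76 and then to 0.745, steps of like size.

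CST6 (chr11:66012008-66013505), a secreted cystatin that inhibits cysteine proteases such as legumain, had the latest change. Untreated libraries gave 25.1, 25.8 and 25.4 TPM and 24 h libraries 34.3, 26.3 and 27.5, all above untreated, 2 of them by little. At 72 h the levels were 1.17, 1.31 and 2.13, below every other library. The change was 0.19 at 24 h and -3.40 at 72 h (SE 0.137). Its change of -3.59 from 24 h to 72 h was the 2nd lowest of all tested genes.

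Among regulators inside the cell, BICC1 (chr10:58512220-58831435) encodes an RNA-binding protein needed for the shape of kidney tubules. It measured 68.0, 76.9 and 72.5 TPM untreated, 8.45, 8.93 and 9.70 at 24 h, and 8.09, 8.97 and 9.54 at 72 h. The 24 h and 72 h libraries overlapped throughout. BICC1 was at 12.5% of its untreated mean at 24 h and at 12.2% at 72 h, with changes of -2.87 and -2.90 (SE 0.0750).

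ID4 (chr6:19837370-19842197) encodes a helix-loop-helix protein that lacks the DNA-binding part and blocks its partners. Its levels were 15.3, 15.6 and 16.1 TPM untreated, 1.13, 1.16 and 1.06 at 24 h, and 4.18, 4.39 and 4.34 at 72 h. Each group was tight and the 72 h libraries lay between the others. ID4 was at 7.1% of untreated at 24 h and 27.4% at 72 h, the highest share of the 10 genes at that time, with changes of -2.98 and -1.65 (SE 0.0641) and 1.33 from 24 h to 72 h.

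TESC (chr12:117038923-117099416) encodes tescalcin, a small calcium-binding protein. It was the most abundant of the 10 genes in each group, at 298, 285 and 292 TPM untreated, 62.8, 51.0 and 58.0 at 24 h, and 27.1, 22.1 and 26.7 at 72 h. The 3 groups were apart, and even the 72 h mean of 25.3 ± 2.76 TPM was close to the untreated mean of CST6. The change was -2.33 at 24 h and -3.48 at 72 h (SE 0.0872).

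ANKRD2 (chr10:97572441-97583884), an ankyrin repeat protein known from muscle, measured 22.7, 23.3 and 21.5 TPM untreated, 7.42, 5.19 and 7.13 at 24 h, and 1.01, 0.560 and 1.54 at 72 h. It had the widest relative spread within the 72 h group together with CST6, and its groups still did not overlap. The change was -1.65 at 24 h and -3.56 at 72 h (SE 0.169).

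SFTA1P (chr10:10784439-10794914), a transcribed pseudogene of the surfactant-associated family known as a lung RNA, measured 32.5, 29.1 and 32.8 TPM untreated, 6.92, 7.76 and 6.36 at 24 h, and 1.29, 1.26 and 1.38 at 72 h. It was at 22.3% of untreated at 24 h and at 4.17% at 72 h (changes -2.02 and -3.81, SE 0.0807). SFTA1P lies inside CELF2 in RefSeq, and CELF2 averaged 19.3, 7.49 and 9.48 TPM in the same 3 groups. The sources used here do not say whether counting used strand, so how reads were split between the pair is uncertain.

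**Figure D2:**
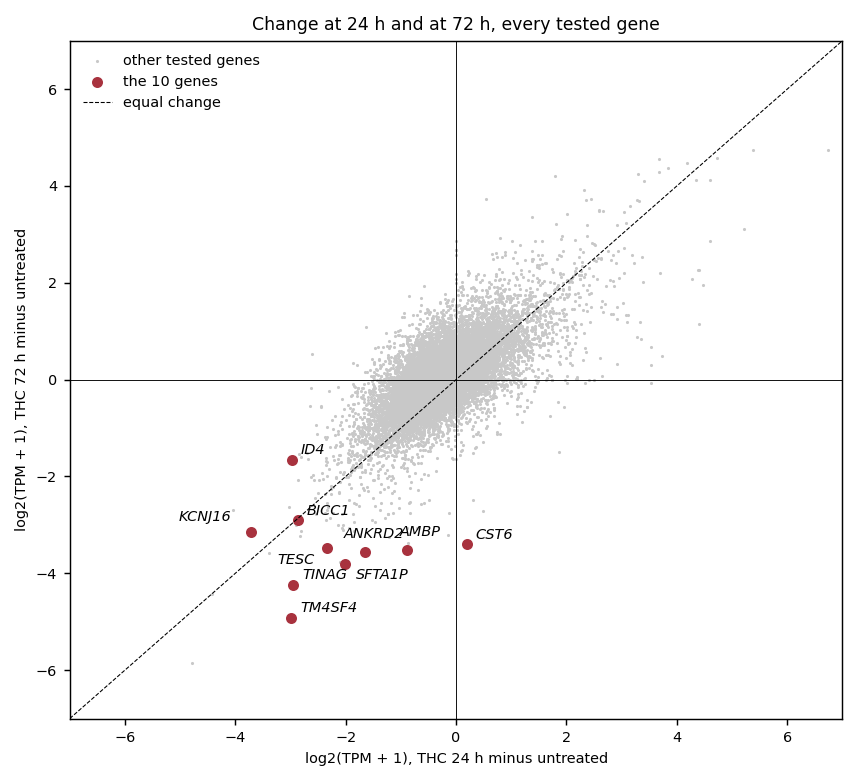
Difference of log2(TPM + 1) from untreated at 24 h (horizontal) and 72 h (vertical) for every tested gene (grey) and the 10 genes (red, named), with the dashed line marking equal change. ID4 and KCNJ16 lie above the line, BICC1 lies on it and the other 7 lie below it, CST6 farthest, at 0.19 and -3.40.

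The 10 genes did not share 1 time course. Likeness to other tested genes was measured as the distance between mean-centred log2(TPM + 1) profiles over the 9 libraries, smaller being more alike. The 10 genes were left out of this search, so a gene named as closest is the closest outside the 10. ID4 was closest to KANK2 (0.30) and H2AX (0.44), which were also lowest at 24 h and partly back at 72 h, KANK2 with 63.2, 8.16 and 20.1 TPM on average. BICC1 was closest to RPL7AP75 (0.29), a ribosomal protein pseudogene whose reads may be shared with near-identical copies, and to KLHL14 (0.35), which went from 8.50 to 0.257 and 0.226 TPM. AMBP was closest to FXYD2, a regulatory subunit of the sodium pump (0.67; 1328, 716 and 157 TPM), and to FGFBP1 (0.70).

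CST6 was closest to PADI1, a protein-citrullinating enzyme (0.78; 119, 108 and 12.1 TPM), and to ANGPTL4 (1.04), both of them low at 72 h alone. The mitochondrially encoded MT-CO2, at 16658, 3857 and 1226 TPM, was among the 2 closest genes for SFTA1P (0.28), ANKRD2 (0.90), TINAG (1.09) and TM4SF4 (1.53). For SFTA1P the other was MT-CO1 (0.89). TESC was closest to the mitochondrial pseudogene MTCO1P12 (0.63), whose reads may come from near-identical copies, and to the kidney cadherin CDH16 (0.65). ANKRD2 was next to PLK2 (0.82). KCNJ16 was closest to the fatty acid activating enzyme ACSL1 (0.97) and the tight junction gene CLDN2 (1.02), and CLDN2 was also the second for TINAG (1.36) and TM4SF4 (2.24).

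Relatives of the 10 genes by family, protein complex, pathway or lineage made 13 lists with 130 genes, of which 62 passed the filter on mean TPM. These were tested with limma over all 13753 genes, where 51.7% were called lower and 25.0% higher at 24 h, and 33.0% lower and 40.1% higher at 72 h (adjusted p below the 0.05 threshold). Of the 62 relatives, 36 (58.1%) were lower and 15 higher at 24 h, and 23 (37.1%) lower and 23 higher at 72 h, shares close to those of all genes. With each library centred on its median, 27 were lower and 22 higher at 24 h, and 27 lower and 18 higher at 72 h. Over all genes, centring moved the higher share of calls from 32.6% to 49.1% at 24 h, from 54.8% to 47.3% at 72 h and from 75.5% to 44.5% between the times. The adjusted p-values that follow are limma's.

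Among relatives of TM4SF4 in the L6 family, both tested genes rose. TM4SF1 rose from 222 ± 7.18 to 811 ± 19.4 TPM at 24 h (1.86, adjusted p = 1.99e-08) and stood at 286 ± 38.7 at 72 h (0.36, adjusted p = 0.00286). TM4SF19 rose from a mean of 99.6 to 1033 and 582 TPM (3.36 and 2.53, adjusted p = 1.05e-11 and 5.98e-11). The other 3 members of the family list did not pass the filter and were not tested. TM4SF18 had lower levels with THC without overlap, averaging 0.997, 0.235 and 0.116 TPM, and TM4SF5 and TM4SF20 were listed at or near 0.

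TINAGL1, the single close relative of TINAG, fell from a mean of 204 to 105 and 65.6 TPM (-0.96 and -1.62, adjusted p = 1.20e-06 and 3.07e-08). ITIH4, the 1 tested heavy chain of the inhibitor family that pairs with the AMBP product bikunin, fell from 1.50 to 0.144 TPM at 24 h (-1.13, adjusted p = 2.82e-06) and was above untreated at 72 h (2.28 TPM, 0.39, adjusted p = 0.00531). Of 15 other inwardly rectifying channel genes only KCNJ11 was tested, and it was called at 72 h alone (0.34, adjusted p = 0.0123; -0.13, adjusted p = 0.285 at 24 h). SFTA2, the 1 tested surfactant-type gene, fell from 13.9 to 7.28 and 0.441 TPM (-0.88 and -3.37, adjusted p = 0.00411 and 3.32e-07).

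The ID family fell with ID4. ID1 went from 242 to 61.3 and 73.6 TPM (-1.97 and -1.71), ID2 from 335 to 152 and 80.8 (-1.13 and -2.04) and ID3 from 83.0 to 13.5 and 11.4 (-2.54 and -2.77), with adjusted p between 1.67e-09 and 1.85e-07. Between 24 h and 72 h, ID1 was slightly higher (adjusted p = 0.0433), ID2 lower (adjusted p = 7.82e-07) and ID3 not called (adjusted p = 0.103), beside the change of 1.33 in ID4. The E proteins TCF3 and TCF12, which ID proteins bind, changed by -0.24 and -0.15 at 24 h (adjusted p = 0.0453 and 0.0485), calls that were lost after centring. Of 11 tested BMP pathway genes, 3 rose and 7 fell at 24 h, and 5 rose and 3 fell at 72 h. With libraries centred on their medians the counts were 4 and 5 at 24 h, and 3 and 3 at 72 h. SMAD6, an inhibitory SMAD, fell from 20.7 to 3.03 and 4.70 TPM (-2.43 and -1.92, adjusted p = 2.10e-09 and 9.74e-09). The decoy receptor BAMBI rose (1.04 and 1.29), as did the receptor ACVR1 (1.03 and 0.78), and the receptor BMPR2 fell (-0.86 and -0.58).

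BICC1 acts with ANKS3 and ANKS6 and regulates the polycystin mRNA PKD2. ANKS6 fell from 67.8 to 39.2 and 36.9 TPM (-0.77 and -0.86, adjusted p = 3.60e-07 and 1.94e-07). PKD2 fell from 13.2 to 4.94 TPM at 24 h (-1.27, adjusted p = 1.53e-06) and stood at 14.3 TPM at 72 h (adjusted p = 0.396), while BICC1 itself stayed low. Of the 7 genes of this group, 0 rose and 3 fell at 24 h (3 and 3 after centring) and 4 rose and 2 fell at 72 h (3 and 2), the rises including PKD1 (0.50, adjusted p = 0.00103) and the kinase NEK8 (0.45, adjusted p = 0.000547). The TESC relative CHP1 changed by -0.21 at 24 h (adjusted p = 0.0146), a call lost after centring. Of 6 tested cystatins and target proteases, CTSL rose from 106 to 328 and 327 TPM (1.62 and 1.61) and CTSV fell (-0.88 and -1.06). The ANKRD2 relatives ANKRD1 and ANKRD23 both rose at 24 h, ANKRD1 from 3.04 to 19.3 TPM (2.33, adjusted p = 8.21e-09) before returning to 2.88 TPM, and ANKRD23 by 0.34 at 24 h and 1.07 at 72 h (adjusted p = 0.0141 and 7.03e-06).

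Of 13 tested transcription factors of tubule, duct and liver, 3 rose and 9 fell at 24 h (4 and 7 after centring). At 72 h, 3 rose and 7 fell (2 and 7 after centring). Of all tested genes, 25.0% rose and 51.7% fell at 24 h, and 40.1% rose and 33.0% fell at 72 h. PAX2 fell from 13 to 4.14 and 5.78 (-1.44 and -1.05) and SOX9 from 38.4 to 23.9 and 16.3 (-0.66 and -1.19). EHF rose at 24 h from a mean of 0.664 to 2.11 TPM and was back at 0.663 at 72 h. PAX8, the more abundant PAX gene of this epithelium, rose from 249 to 406 and 312 TPM (0.70 and 0.32, adjusted p = 3.21e-05 and 0.00646). Of 10 tested effector genes, 2 rose and 6 fell at 24 h (3 and 5 after centring). At 72 h, 3 rose and 5 fell (3 and 5 after centring). The largest falls among these effectors were those of CDH16 (17.1, 3.38 and 1.24 TPM; -2.05 and -3.01), the fibrinogen chain gene FGB (7.58, 0.948 and 0.0771 TPM; -2.14 and -2.99) and the amino acid transporter gene SLC3A1 (14.6, 2.79 and 0.834 TPM; -2.04 and -3.10). The small heat shock protein gene CRYAB rose (2.24 and 1.70).

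**Figure D3:**
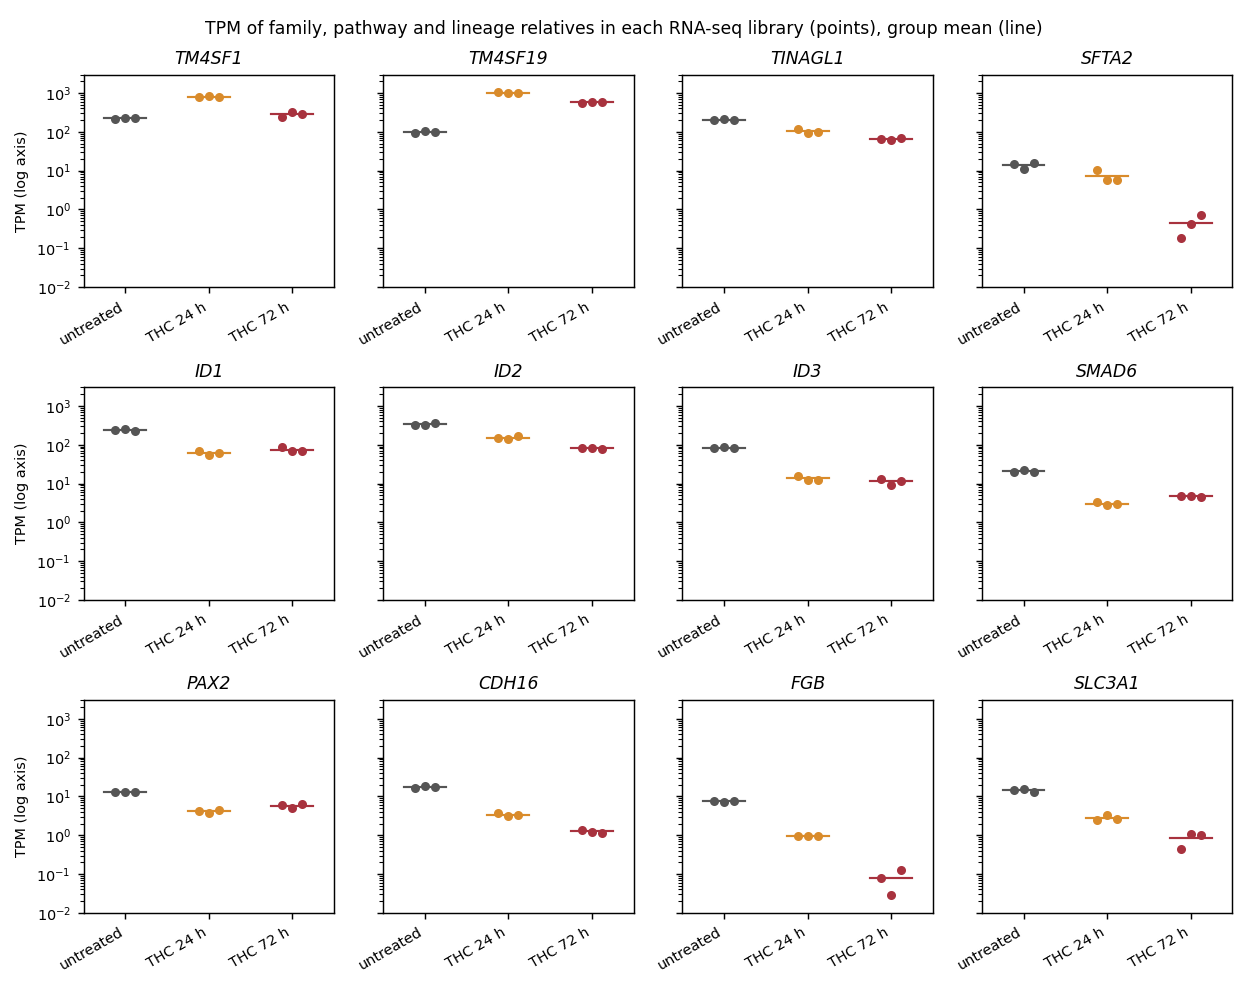
TPM on a log axis of 12 relatives of the 10 genes, with 3 points per group and a line at the mean. TM4SF1 and TM4SF19 are above untreated at both times, the other 10 are below it, and SFTA2, CDH16, FGB and SLC3A1 are among those that step down again at 72 h. The 12 were selected for display. Of all 62 tested relatives, 15 were called higher and 36 lower at 24 h. At 72 h, 23 were higher and 23 lower.

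The nearest tested genes on either side of each of the 10 were called lower in 14 of 20 cases and higher in 3 at 24 h, and lower in 13 and higher in 3 at 72 h. Over all tested genes 51.7% were lower and 25.0% higher at 24 h, and 33.0% lower and 40.1% higher at 72 h. The distances ran from 0.505 kb to 2768 kb (TAF3, from SFTA1P), so these counts do not describe close neighbours alone. The genes named next are those within 13.8 kb. HOGA1, 0.505 kb from ANKRD2, fell from 12 to 2.40 TPM at 24 h and was at 5.69 at 72 h (-1.94 and -0.96, adjusted p = 4.43e-09 and 6.23e-07), so unlike ANKRD2 it was higher at 72 h than at 24 h. KIF12, 13.3 kb from AMBP, fell (-1.32 and -0.94), and WWTR1, 13.8 kb from TM4SF4, fell by less than its neighbour (-0.42 and -1.12). CATSPER1, 3.25 kb from CST6, rose (1.13 and 0.79), and FBXW8, 7.78 kb from TESC, rose (0.19 and 0.71). BANF1, 7.86 kb from CST6 on its other side, fell (-1.07 and -1.26). ZNF618, 3.53 kb from AMBP, fell (-0.97 and -0.28), as did UBTD1, 1.24 kb from ANKRD2 (-0.66 and -0.77).

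Chromatin was read from the peak lists of each library, which were not used to pick the genes. A start site counted as listed where a peak lay within 1000 bases of a RefSeq start or, for BICC1, SFTA1P, TESC and CST6, of either gene end. With 3 libraries against 3, an exact two-sided permutation test cannot give a p below 0.1, so counts are set beside those of the 12686 tested genes with a position. An ATAC peak was listed in every untreated library at 8 of the 10 genes (all tested genes: 91.0%), in every 24 h library at 8 (88.4%) and in every 72 h library at 4 (77.3%). For H3K4me3 the counts were 8 in untreated (90.8%) and 9 with THC (91.1%). The 83 other genes at least 4-fold lower at 72 h on log2(TPM + 1) also lay below all tested genes. Their ATAC shares were 75.9% untreated, 68.7% at 24 h and 61.4% at 72 h. For H3K4me3 they were 75.9% untreated and 79.5% with THC. No gene of the 10 had its ATAC peak in every untreated and no 24 h library (0.213%) or no 72 h library (0.355%), and none lost H3K4me3 in that way (0%).

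TM4SF4, TINAG, KCNJ16 and CST6 had an ATAC peak at the start in all 9 libraries, as did 76.8% of all tested genes. At 72 h, TM4SF4, TINAG and CST6 thus still had a listed peak within 1000 bases, with 1.31%, 3.35% and 6.04% of their untreated RNA. A listing gives no level. The TM4SF4 region listed in all 9 libraries ended 573 bases before the start. Short peaks nearer the start were listed in untreated replicates 1 and 2 and 24 h replicate 3, but in no 72 h library. BICC1, ID4 and ANKRD2 had a peak at the start in all but 72 h replicate 2. That library has the shortest list, with 38495 peaks against up to 150884 in untreated replicate 1. TESC had it in 3 untreated, 3 24 h and 1 of 3 72 h libraries (replicate 3). The part of list length in these gaps was not tested. SFTA1P had a peak in 1 untreated library, with a fold enrichment of 3.68, and in no THC library. AMBP, at 18.9 ± 0.577 TPM in untreated cells, had none within 1000 bases in any ATAC or H3K4me3 library. Farther out, an ATAC region 3.78 kb before its start (chr9:114082080-114082778) was listed in all 9 libraries, and H3K4me3 peaks covered 192 to 511 bases within 2500 bases of the start in all 6.

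**Figure D4:**
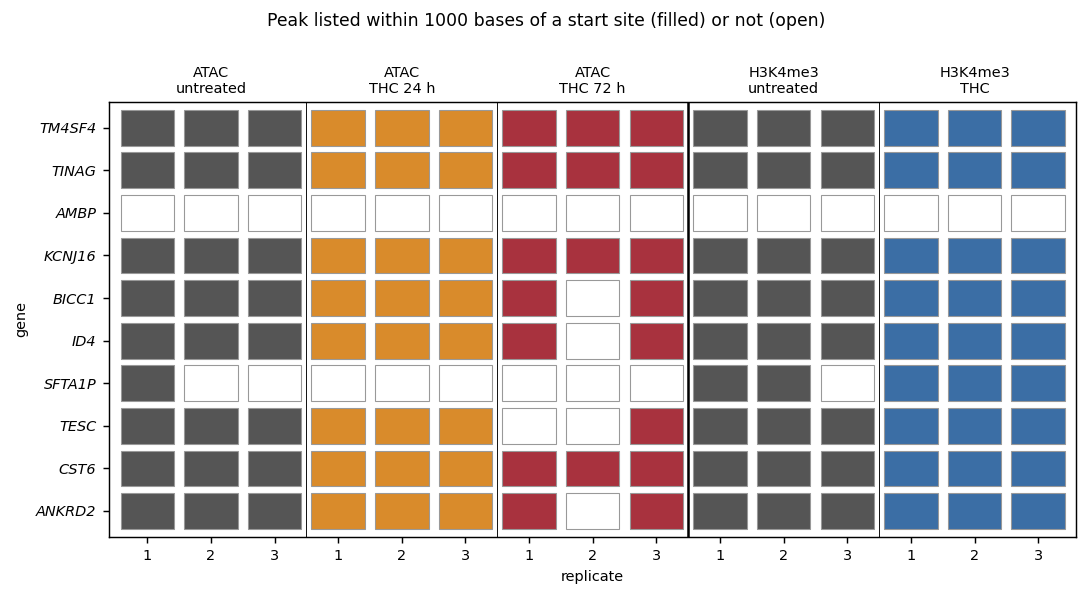
Filled squares mark libraries with a listed peak within 1000 bases of a start site, for 10 genes (rows) in 9 ATAC and 6 H3K4me3 libraries (columns, by group and replicate). AMBP is open throughout, SFTA1P is filled in 1 ATAC library, and 72 h ATAC replicate 2 is open for 6 of the 10 genes.

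H3K4me3 was listed at the start in all 6 libraries for 8 genes (all tested genes: 90.6%), in 5 for SFTA1P and in 0 for AMBP. The authors' fold enrichment of the highest peak at the start, a value to be read within each list, was 33.1 to 47.7 for BICC1, 22.2 to 29.9 for ID4, 15.8 to 17.9 for ANKRD2, 10.9 to 14.9 for TINAG and 8.03 to 12.6 for TM4SF4. It was lowest for SFTA1P, at 3.81 to 5.10. These ranges take untreated and THC libraries together. The stretches of ID4, rich in CpG, and of TINAG, poor in it, both lay at such marked starts.

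Where a gene had several starts, or either end was used, H3K4me3 length was taken at the site with the most covered bases. For CST6 this was the end at base 66013505. The length covered by peaks within 2500 bases was lower in every THC than in every untreated library at ID4 and ANKRD2. These are 2 of the 10 genes, against 2.96% of all tested genes. The reverse was seen at 0 of the 10 against 8.29%. At ID4 the covered length was 3320, 3277 and 3182 bases untreated and 3077, 3102 and 2466 with THC. At ANKRD2 it was 3295, 3735 and 3336 bases untreated and 2533, 2814 and 3241 with THC. The nearest libraries of the 2 groups were thus close at both genes. Neither gene met this within 500 bases of the start, and 1 of the 10 did within 5000 bases. Shares of all tested genes are not given for these windows or with a library left out. TM4SF4 had 3554, 3593 and 3905 bases untreated and 2069, 3371 and 3602 with THC, where 1 THC library overlapped, and leaving out THC replicate 3 made it the third such gene. KCNJ16 was covered over the whole window in all 6 libraries. BICC1, at 2841 ± 61.8 and 2829.7 ± 123 bases, and TINAG, at 3727 ± 95.1 and 3749.7 ± 217, had differences smaller than the spread between libraries.

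**Figure D5:**
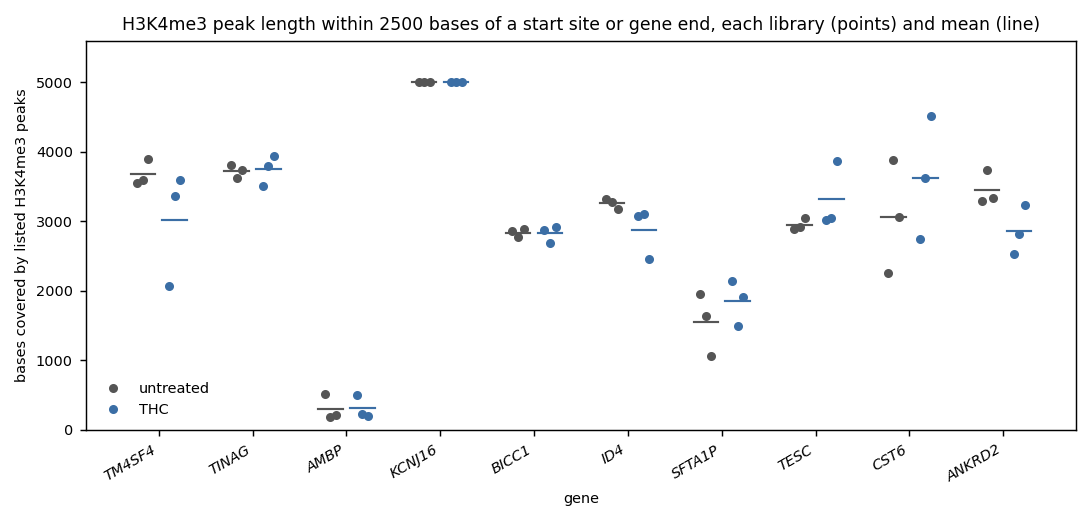
Bases covered by listed H3K4me3 peaks within 2500 bases of a start site or gene end, for each of the 10 genes in 3 untreated (grey) and 3 THC (blue) libraries, with a line at each mean. ID4 and ANKRD2 have all THC points below all untreated points, the points of the other genes overlap, and KCNJ16 is at the full window of 5001 bases.

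Within the 10 genes and 10000 bases around them, ATAC peaks of the 9 libraries merged into 105 regions, 14 of them listed in all 9. Of these 105 regions, 2 were listed in every untreated and no 24 h library, and 4 in every untreated and no 72 h library. The reverse was seen for 0 of them at either time. Over all 239554 merged regions, wherever they lie, the first 2 patterns held for 0.692% and 1.27%. The reverse held for 0.0806% at 24 h and 0.0935% at 72 h. The 4 lay at TM4SF4, KCNJ16 and ANKRD2. TM4SF4 had a pair before its start, chr3:149465082-149465309 and chr3:149466321-149466453 (9.39 and 8.24 kb away), each listed in 3 untreated, 1 24 h and 0 72 h libraries. KCNJ16 had chr17:70069743-70069871, 5.35 kb before its first start, and ANKRD2 had chr10:97573112-97573259, inside the gene and 0.609 kb from a start, both listed in 3 untreated and 0 THC libraries. With every ATAC list shortened to the length of the shortest, an alternative chosen after seeing the data, 0 regions met either pattern. Without 24 h replicate 3 the count at 24 h was 5, and at 72 h it was 10 without 72 h replicate 3 and 7 without untreated replicate 1. Leaving out a library loosens these patterns for every region, and the matching shares of all regions are not given.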

How the data were processed

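The 10 genes, the related lists and the tests were chosen with earlier results of these data known. Files of 24 of 25 samples were used, grouped by their labels. The submitters' processing notes name the build GRCh38 and, without roles, MACS2 2.2.7.1, MACS3, Picard, SAMtools, Bowtie2, FastQC, Trim Galore and Salmon. Read shifting, duplicate removal, peak controls and strand use: not given in the sources used here. RNA levels are TPM as the authors deposited them, and 59918 of 60179 identifiers had a symbol. TPM sums to a fixed total, so abundant genes move all others. Peaks were listed per library. Fold enrichment (a ratio) is the authors' own value for each peak. Deposited -log10 p values ranked peaks within a list, and deposited -log10 q values filtered them. The authors' score column went unused.

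Genes whose mean reached 1 TPM were fitted on log2(TPM + 1) with limma 3.58.1 in R 4.3.3 (3 groups of 3 libraries, eBayes with trend, Benjamini-Hochberg adjustment over 13753 genes, threshold 0.05), a step checked on simulated data. The SE of the 10 genes is from this fit. Peaks were merged and counted in Python 3.11.15 (pandas 2.3.3, numpy 2.4.6) on chromosomes 1 to 22 and X, any overlap counting, and matplotlib 3.10.9 drew the plots. Start sites, strand and the 250 bases before them come from RefSeq GRCh38.p14. Motifs were chosen after the sequences were seen. The rule for naming took the 10 genes, up to 4 called relatives per list by size of change and every tested gene of lists of up to 6. It also took the nearest tested gene on each side (the text gives a part) and the 2 genes outside the 10 closest in profile. Start-site and nearby regions were also named under this rule. BMPR2, PAX8, INVS, SMAD4, HNF4G, LHX1 and ELF3 were named beside it after their values were seen. Alternatives covered pseudocounts, filters, scaling, the replicate block, the variance model, windows, list lengths and leaving out each library. Some relatives are not reported here.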

Additional observations from a re-analysis of the deposited data

Results flagged for a closer look

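CST6 stood apart by direction: every 24 h library lay above and every 72 h library below all untreated libraries, with -3.59 on the log2(TPM + 1) scale from 24 h to 72 h. As the gene was picked on these libraries, this difference was not tested.

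Among the relatives, 6 genes were called by limma in opposite directions at the 2 times and also called between the times. ITIH4 was lower at 24 h and higher at 72 h, with a change of 1.52 from 24 h to 72 h. SMAD4 (0.67), HNF4G (0.65), INVS (0.60) and LHX1 (0.56) followed that order, and ELF3 the reverse (-1.45). With libraries centred on their medians, SMAD4, HNF4G and LHX1 were not called at 24 h, nor INVS and LHX1 at 72 h.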

How the results depend on the processing

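Over all alternatives, 77 of 450 recomputed changes of the 10 genes moved by more than 1 SD, all under another pseudocount, centring or rescaling, and BICC1 between the times (-0.33 to 0.03) was the only one to change sign. Counts of all called genes and of lower relatives stayed within 1.5 times, but centring moved the calls between 24 h and 72 h from 7546 higher and 2445 lower to 4176 and 5217. With the replicate block, 3447 genes were higher and 7130 lower at 24 h, and 34 and 23 relatives were lower at 24 h and 72 h. Deviations from group means correlated at -0.20 to 0.25 between same-numbered libraries and at -0.23 to 0.22 between the others. No pairing by number was visible, which does not show whether same-numbered libraries shared a culture. Peak counts moved more. The peak counts below are for the 10 genes or regions near them. Shares of all tested genes or regions at the same settings are not given, so nothing is read from these counts. An ATAC peak in every untreated library was listed at 5 of the 10 genes within 500 bases and at 5 with -log10 q of at least 5, but at all 10 within 5000 bases, as for H3K4me3. An ATAC peak in every untreated and no 72 h library was listed at 1 gene (BICC1) at that q, and at 0 to 1 when a library was left out (TESC, without 72 h replicate 3). Lower H3K4me3 length was seen at 0 genes within 500 bases, 1 within 5000 and 0 over gene bodies. Nearby regions lost at 24 h and 72 h numbered 0 and 0 with shortened lists, and 2 to 5 and 4 to 10 when a library was left out. The cause was not tested. A minimum of 100 covered bases was not run for covered length. Unknown RNA depth limits low levels.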
